A study of Mus musculus with 8 samples.

Results

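The genes described here were 10 C-type lectin genes, Cd209a, Cd209b, Cd209d, Cd209f, Cd209g, Clec10a, Clec12a, Clec7a, Clec4e and Clec4n, found by their symbols in the expression tables. The choice was made with earlier results of these data known. All 10 were listed both in the HFD table of 17740 genes and in the ND table of 16436 genes, which had 16136 genes in common. RNA was sequenced from 2 kinds of macrophage of the epididymal white adipose tissue (eWAT) of wild-type male C57BL/6J mice. Adhesion-related macrophages (ARMs) stay attached to adipocytes through collagenase digestion and were shaken off the floating adipocyte layer, and SMs are the macrophages of the stromal vascular fraction, labelled NARM. Both were sorted with CD45, CD11b and F4/80. Mice received a normal diet (ND) or a high-fat diet (HFD) for 8 weeks from an age of 6 weeks, and the 4 groups HFD ARM, HFD SM, ND ARM and ND SM had 2 libraries each. A library was a pool of 6 HFD mice or of 10 ND mice, so the animals within a pool cannot be seen apart, and p-values measure the spread between pools.

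C-type lectin receptors are membrane proteins that bind sugars and other ligands through a calcium-dependent lectin domain or a domain derived from it. The CD209 (SIGNR) family and Clec10a (MGL1, CD301a) bind mannose, fucose or galactose residues and are used as marks of tissue-resident or alternatively activated macrophages. Clec7a (Dectin-1), Clec4n (Dectin-2) and Clec4e (Mincle) signal through the kinase Syk and the adaptor Card9 to NF-κB and cytokine genes, Clec4n and Clec4e by way of the Fc receptor gamma chain encoded by Fcer1g, while Clec12a carries an inhibitory motif that recruits phosphatases.

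The 10 genes lie on 3 chromosomes of the mouse genome (RefSeq, GRCm38.p6, the assembly also called mm10). The 5 Cd209 genes lie on chromosome 8, from Cd209a at 3743395 to 3748984 to Cd209g at 4134246 to 4137707, and Cd209f is at 4102784 to 4105838. Clec4n (123229843 to 123247024), Clec4e (123281789 to 123289871), Clec12a (129349783 to 129365303) and Clec7a (129461591 to 129472785) lie on chromosome 6, and Clec10a lies on chromosome 11 at 70166623 to 70170836.

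Cd209f and Cd209g are the pair whose sequences bear most on the measurement, since long stretches of the pair are identical. The RefSeq promoter windows, from 250 bases before to 50 bases after a transcript start, were available for 8 of the 10 genes. Those of Cd209f and Cd209g aligned over 286 bases, of which 238 (83.2%) were identical, with an unbroken identical run of 180 bases. A set length of 150 bases of this alignment, outside the exons of protein-coding transcripts (GENCODE M21), was chosen. These bases are printed 5′ to 3′ on the gene's strand, with the bases that differ in capitals. They are at chr8:4105839-4105988 on the minus strand for Cd209f and at chr8:4134498-4134647 on the plus strand for Cd209g. For Cd209g they fall inside the extent of the RefSeq gene and of a non-coding transcript that starts further upstream.
Cd209f: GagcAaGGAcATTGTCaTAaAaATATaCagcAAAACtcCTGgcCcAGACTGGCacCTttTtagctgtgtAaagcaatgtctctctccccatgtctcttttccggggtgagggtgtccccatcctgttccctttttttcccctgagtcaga
Cd209g: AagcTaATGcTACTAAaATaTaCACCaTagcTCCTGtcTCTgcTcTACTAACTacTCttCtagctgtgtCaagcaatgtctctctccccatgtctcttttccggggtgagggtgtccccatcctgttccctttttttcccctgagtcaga
Of these 150 bases 40 differed, and the last 80 were identical. The transcripts of the 2 genes are also alike: 19.9% of the 100-base stretches of Cd209f transcripts and 11.3% of those of Cd209g occurred unchanged in the other gene. The estimated counts of Cd209f and Cd209g were not whole numbers in 8 of 8 libraries. The same held for Clec10a, which shares 2.64% of its 100-base stretches with its neighbour Mgl2. Cd209b and Cd209d, with no such stretch in common with another gene, had a count that was not whole in 1 of 8 libraries each, and the other 5 genes in 0. The split of reads between Cd209f and Cd209g is uncertain in each value given for them.

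Cd209d and Clec4e carried the largest changes toward SMs and toward ARMs that kept an adjusted p under 0.05 in both diets. Stretches of their promoter windows outside protein-coding exons are printed with matches to 3 short motifs in capitals, at chr8:3878556-3878749 and at chr6:123289872-123290121, both on the minus strand.
Cd209d: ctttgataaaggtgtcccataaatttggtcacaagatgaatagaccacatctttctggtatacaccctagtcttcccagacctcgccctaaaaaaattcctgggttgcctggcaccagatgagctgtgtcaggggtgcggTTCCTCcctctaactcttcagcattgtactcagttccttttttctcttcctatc
Clec4e: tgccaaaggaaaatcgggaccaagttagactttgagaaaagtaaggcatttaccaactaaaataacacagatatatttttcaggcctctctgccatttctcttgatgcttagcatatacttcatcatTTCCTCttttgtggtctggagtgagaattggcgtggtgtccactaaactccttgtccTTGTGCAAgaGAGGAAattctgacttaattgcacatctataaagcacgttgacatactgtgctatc
The motifs were GAGGAA (a core of PU.1 sites), TGANTCA (AP-1) and TTGCNNAA (C/EBP), searched on both strands. Over all 32851 windows in the table, 28.3% held GAGGAA, 7.81% held TGANTCA and 10.8% held TTGCNNAA. The Clec4e window held 2 matches to GAGGAA and 1 to TTGCNNAA, and the Cd209d window held 1 to GAGGAA. The windows of Cd209f and Cd209g each held 1 match to TGANTCA, within the identical run, and the Cd209a window held 0 matches to any of the 3. A match describes the letters and not a bound site.

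The 8 libraries had 14508824 to 19040133 estimated counts each, and the 10 genes took 0.231% to 0.375% of them. Each of the 10 genes had 190 counts or more in every library. Over the 12200 to 13302 genes compared in each group, counts of replicate pools differed by more than sampling noise (mean chi-square per gene 4.22 to 10.1, where 1 is sampling noise). This mean was not taken over the 10 genes alone. The sorted cells had the genes of macrophages in all groups. The 7 general macrophage markers (such as Adgre1, which encodes F4/80, and Csf1r) summed to 2680 to 2810 FPKM in HFD ARMs and 2647 to 2679 in HFD SMs, and 0 of them had an adjusted p under 0.05 in either diet. FPKM is the number of fragments scaled to transcript length and library size, so that levels of different genes can be compared.

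Transcripts of Cd209f, Clec10a, Cd209d and Cd209g were the most abundant of the 10 in all 4 groups. The order of mean FPKM in HFD SMs was Cd209f at 699 ± 37.6 (SD, n = 2 libraries here and below), Clec10a at 482 ± 25.3, Cd209d at 407 ± 5.13, Cd209g at 277 ± 3.21, Cd209b at 135 ± 7.76, Clec12a at 97.5 ± 1.29, Cd209a at 94.9 ± 0.785, Clec7a at 72.7 ± 0.884, Clec4e at 24.5 ± 0.382 and Clec4n at 9.69 ± 1.92. The libraries of neighbours in this order did not overlap. The first 4 places and the last 2 were held by the same genes in all 4 groups. The neighbours whose libraries overlapped were Clec12a and Cd209b in HFD ARMs, and, in ND SMs, Clec7a with Cd209a and Clec4e with Clec4n. Cd209f was among the most abundant transcripts of these cells, ranking between 56 and 157 over all genes in the 8 libraries, while Clec4n ranked between 1717 and 6019.

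**Figure D1:**
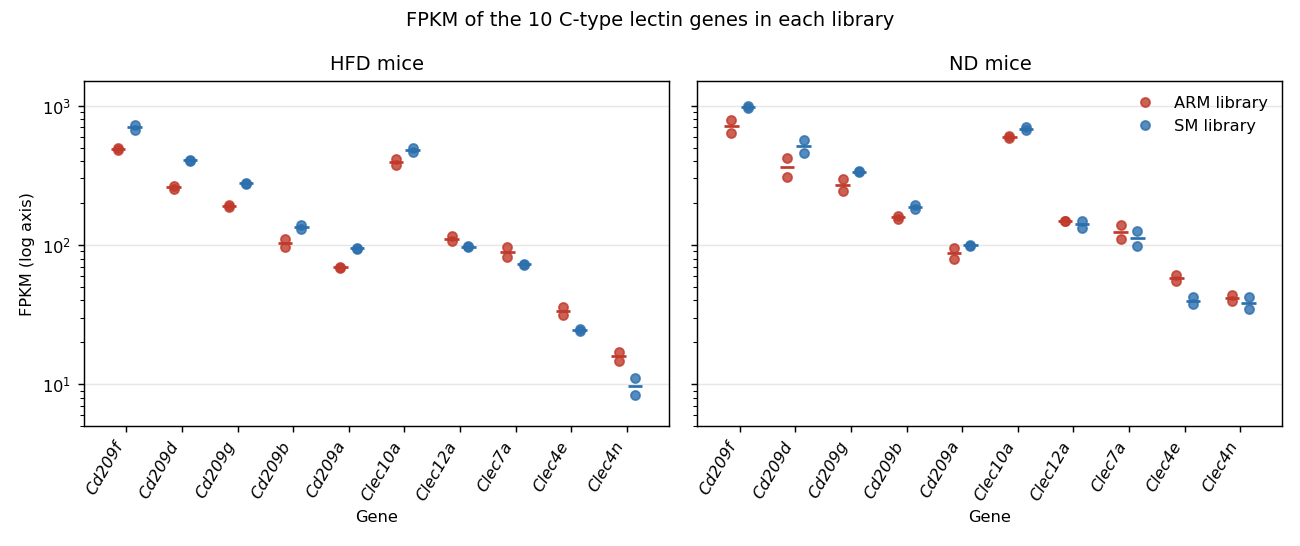
FPKM (log axis) of the 10 genes in each ARM library (red) and SM library (blue) of HFD mice (left) and ND mice (right); horizontal bars are means of 2 libraries. The 5 Cd209 genes and Clec10a lie lower in ARMs than in SMs in both diets, while Clec4e lies higher in ARMs.

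ARMs were compared with SMs in HFD mice to see which transcripts differ between adipocyte-attached and stromal macrophages of obese tissue. All 5 Cd209 genes among the 10 and Clec10a were lower in ARMs, and Clec4n and Clec4e were higher. The CD209 family genes Cd209c and Cd209e are not among the 10 and are given further below. Of the 10 genes, 6 were lower and 2 higher at an adjusted p under 0.05, against 3.02% (lower) and 6.53% (higher) of the 13337 genes tested. Because the genes and lists were chosen with earlier results of these data known, such shares, here and below, are a background. They do not test the genes as a set. With a fold change over 1.5 as well, 1 was called lower (Cd209d) and 1 higher (Clec4n), where 0.292% and 4.46% of all genes were called. In the first 6 genes each ARM value was under each SM value, which held for 21.3% of all genes, and over it in the other 4, which held for 29.2%. Adjusted p-values here and below were computed with edgeR (quasi-likelihood) and the Benjamini-Hochberg method over all genes tested. In bulk RNA, fewer cells expressing a gene and less of its RNA per cell cannot be told apart.

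Cd209d (SIGNR3), which binds fungal and mycobacterial glycans, showed the largest decrease. It had an FPKM of 265 and 252 in HFD ARMs against 410 and 403 in HFD SMs. The 2 pools of each kind were close together and the kinds were far apart, with a log2 fold change of -0.68 (SE 0.06, adjusted p = 0.00014), which is a level 1.60-fold higher in SMs. The call was lost by a narrow margin only under limma without a filter on low FPKM (adjusted p = 0.0509) among 15 alternatives.

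Cd209f (SIGNR8) had an FPKM of 495 and 477 in HFD ARMs against 726 and 672 in HFD SMs. Cd209g (SIGNR7) stood at 193 and 189 against 279 and 275. The log2 fold changes of this pair were -0.56 (SE 0.07, adjusted p = 0.00058) and -0.57 (SE 0.06, adjusted p = 0.00035), just short of the 1.5-fold threshold, which is 0.58 on the log2 scale. Leaving out replicate 1 of the HFD ARMs moved both past it, at -0.60 each, and leaving out replicate 2 of the HFD SMs moved Cd209f past it (-0.62).

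Cd209a (SIGNR5), the gene named DC-SIGN in the mouse and also known from dendritic cells, had an FPKM of 69.0 and 70.0 in HFD ARMs against 94.3 and 95.5 in HFD SMs, a log2 fold change of -0.48 (SE 0.06, adjusted p = 0.0010). Cd209b (SIGNR1), a receptor for dextran and bacterial polysaccharide on marginal zone macrophages of the spleen, had 110 and 97.4 against 140 and 129, a log2 fold change of -0.40 (SE 0.08, adjusted p = 0.0116). Clec10a had 415 and 374 against 500 and 464 and the smallest decrease of the 6, -0.32 (SE 0.07, adjusted p = 0.0230). In Cd209b and Clec10a the pools of 1 kind lay further apart relative to the difference. Without replicate 2 of the HFD ARMs, 3 of the 10 genes (Cd209d, Cd209f and Cd209g) kept an adjusted p under 0.05, in place of 8.

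Clec4n was the scarcest of the 10 in these cells. Its FPKM was 17.1 and 14.7 in HFD ARMs against 11.0 and 8.33 in HFD SMs, from 327 to 378 counts against 190 to 251. The groups did not overlap, and the log2 fold change was 0.70 (SE 0.14, adjusted p = 0.0100). The call held without replicate 1 of the HFD SMs alone among the libraries left out. The log2 fold change was 0.51 without replicate 2 of the HFD SMs, under the fold threshold, and the adjusted p was 0.153 and 0.0713 without replicate 1 or replicate 2 of the HFD ARMs.

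Clec4e had an FPKM of 31.4 and 35.8 in HFD ARMs against 24.3 and 24.8 in HFD SMs, and it rose by 0.42 on the log2 scale (SE 0.07, adjusted p = 0.0059). The adjusted p was 0.118 without replicate 2 of the HFD ARMs. Clec7a, the receptor for β-glucan, was at 81.8 and 97.0 against 72.1 and 73.4, a log2 fold change of 0.27 with an adjusted p of 0.0598. Clec7a passed under 5 alternatives, DESeq2 among them (adjusted p = 0.0442). Clec12a, the inhibitory receptor, was at 106 and 116 against 98.4 and 96.5, a log2 fold change of 0.17 with an adjusted p of 0.140. For these last 2 genes every ARM library lay above every SM library, but the test was not passed.

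In ND mice the same comparison gave smaller fold changes for all of the genes but Clec4e, with larger standard errors for all but Clec4n. At an adjusted p under 0.05, Cd209d and Cd209f were lower and Clec4e was higher in ARMs, which is 2 and 1 of the 10 genes against 0.458% and 4.28% of the 12441 genes tested. With the fold threshold added, 0 of the 10 were called by edgeR or by DESeq2, where edgeR called 0.129% of all genes lower and 3.55% higher. An unadjusted p under 0.05 in edgeR was found for 5 of the 10. The share of all genes at that unadjusted limit was not counted, here and below, so such counts have no background beside them. The 5 Cd209 genes and Clec10a again had no ARM value as high as an SM value, as did 22.4% of all genes. Clec4e was the 1 gene with both ARM libraries above both SM libraries, as were 20.9% of all genes, and Clec4n, Clec7a and Clec12a overlapped.

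Cd209d had an FPKM of 420 and 307 in ND ARMs against 566 and 459 in ND SMs, a log2 fold change of -0.52 (SE 0.13, adjusted p = 0.0353). The 2 pools of each kind differed by more than 100 FPKM, and the value ranged from -0.75 to -0.32 as each library was left out. Cd209f had 794 and 635 against 1001 and 955, a log2 fold change of -0.47 (SE 0.11, adjusted p = 0.0236), which ran from -0.62 to -0.33. Both genes were lowest in replicate 2 of the ND ARMs. Neither had an adjusted p under 0.05 without that library (0.434 and 0.275) or without replicate 1 of the ND SMs (0.318 and 0.132).

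Clec4e had 61.2 and 55.4 in ND ARMs against 42.1 and 37.8 in ND SMs, a log2 fold change of 0.55 (SE 0.10, adjusted p = 0.0040). It was the 1 gene of the 10 with an adjusted p under 0.05 in ND mice without any 1 of the 4 libraries, at log2 fold changes from 0.48 to 0.63. Mincle, its product, recognises mycobacterial cord factor and a ribonucleoprotein released by dying cells.

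The other 7 genes did not pass in ND mice. Cd209g came nearest, and it passed without a filter on low counts (adjusted p = 0.0287), in one fit of 8 libraries (0.0470) and with the replicate block (0.0011). Cd209g was at 297 and 245 in ARMs against 332 and 339 in SMs (log2 fold change -0.33, adjusted p = 0.0901), Cd209b at 162 and 154 against 194 and 182 (-0.23, adjusted p = 0.249), Cd209a at 95.6 and 78.9 against 100.5 and 99.1 (-0.19, adjusted p = 0.433) and Clec10a at 588 and 609 against 697 and 668 (-0.19, adjusted p = 0.394). Clec4n stood at 44.1 and 39.6 in ARMs against 42.5 and 34.6 in SMs, a log2 fold change of 0.12 that was -0.02 without replicate 2 of the ND SMs. Clec7a (0.16) and Clec12a (0.07) also changed sign when a library was left out.

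**Figure D2:**
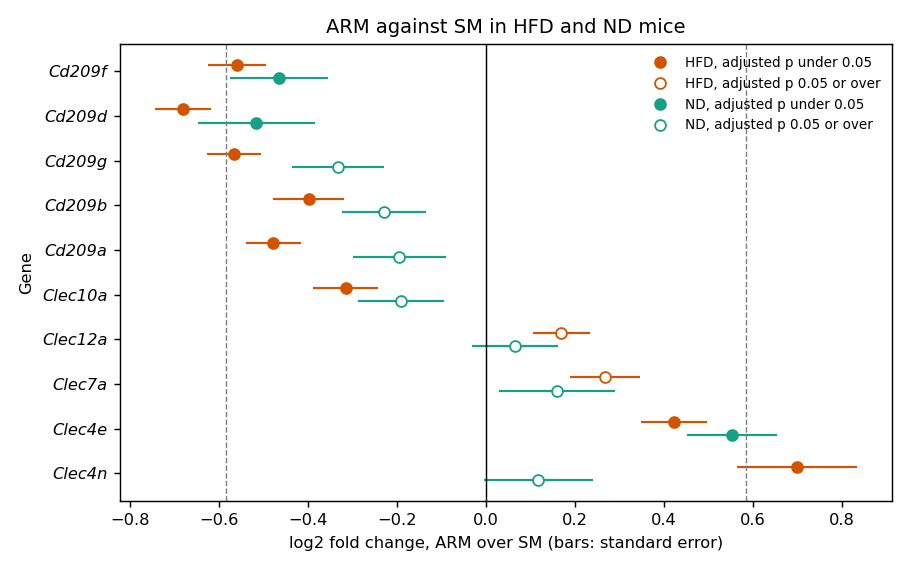
Log2 fold change of ARMs over SMs for the 10 genes in HFD mice (orange) and ND mice (green), with bars of 1 standard error; filled points have an adjusted p under 0.05 and dashed lines mark a fold change of 1.5. Cd209d and Clec4n in HFD mice pass both limits, and 6 genes lie left of 0 and 4 right of 0 in both diets.

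Whether the difference between ARMs and SMs itself differs between the diets was tested with an interaction term over all 8 libraries. Of the 10 genes 0 passed in edgeR, and 0 in DESeq2, with 0.165% of the 13358 genes tested passing in edgeR, and 2 of the 10 had an unadjusted p under 0.05. The largest difference was that of Clec4n, at 0.56 on the log2 scale (HFD less ND, SE 0.20, edgeR adjusted p = 0.423), followed by Cd209a at -0.30 (SE 0.13, adjusted p = 0.6004). For the other 8 genes the difference lay between -0.25 and 0.09. A gene that passed in HFD mice and not in ND mice is therefore not shown to respond differently to the diet.

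The levels in HFD and ND mice are given without a test, because the 2 diets were deposited in separate tables made in different ways. In the FPKM values all 10 genes were lower in HFD mice than in ND mice, in ARMs and in SMs, with no overlap between libraries. This order was common in these tables: both HFD libraries lay below both ND libraries for 49% of all 10858 genes with a mean FPKM of at least 1 in ARMs, and for 53% in SMs. The share of non-whole counts was 32.3% to 32.9% of genes in the HFD libraries and 8.55% to 9.36% in the ND libraries. The gene length implied by counts and FPKM was longer in the HFD table by a median factor of 1.06 over 9850 genes, and by 1.29 for Cd209d, which lowers its HFD FPKM by as much.

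Clec4n differed most between the diets. It had an FPKM of 17.1 and 14.7 in HFD ARMs against 44.1 and 39.6 in ND ARMs, a level 2.63-fold higher on ND, and 11.0 and 8.33 against 42.5 and 34.6 in SMs, a level 3.98-fold higher on ND. Clec4e came next, at 1.74-fold in ARMs and 1.63-fold in SMs. The log2 ratios of HFD to ND of these genes stayed well below 0 on the other scales, at -1.37 (TPM) and -1.22 (TMM-scaled CPM, counts scaled to library size) for Clec4n in ARMs and at -0.77 and -0.72 for Clec4e. For the other 8 genes the FPKM was 1.26-fold to 1.53-fold higher on ND in ARMs and 1.05-fold to 1.54-fold in SMs. Cd209a in SMs changed direction with the scale, from a log2 ratio of -0.07 in FPKM to 0.12 in TMM-scaled counts, as did Cd209d in SMs, from -0.33 to 0.07. By means of TMM-scaled counts 10 of 10 genes were lower on HFD in ARMs and 8 of 10 in SMs. The share of all genes lower on this scale was not counted, so these counts have no background beside them. The ARM libraries of Cd209d overlapped on this scale, at 219 and 204 CPM on HFD against 265 and 194 on ND. The summed FPKM of the 6 monocyte markers (such as Ccr2 and Ly6c2) was also lower on HFD, 67.1 to 104 against 173 to 211. In SMs the sum of the 7 neutrophil markers was 5.58 to 6.26 on HFD against 46.21 to 62.56 on ND. In ARMs it was 9.7 to 11.35 against 10.23 to 31.72, with overlap between libraries. The part of these cells in the ratios was not tested.

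**Figure D3:**
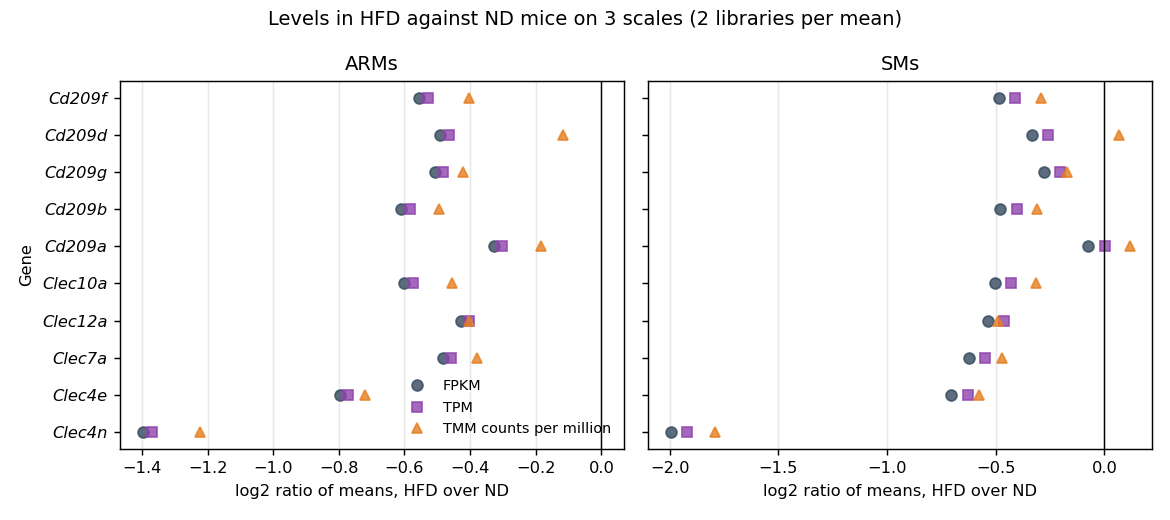
Log2 ratio of the mean level in HFD mice to that in ND mice (2 libraries per mean) in ARMs (left) and SMs (right), in FPKM (circles), TPM (squares) and TMM-scaled CPM (triangles). Clec4n lies furthest below 0 in both cell types, and in SMs Cd209a and Cd209d lie on both sides of 0.

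Over the 8 libraries the 10 genes formed 2 groups. With log2 CPM centred within each diet, the 5 Cd209 genes had Pearson r values of 0.90 to 0.98 with each other, and Clec10a of 0.82 to 0.98 with them. Each of these 6 genes was negatively related to Clec4n, Clec7a, Clec4e and Clec12a, with r from -0.60 to -0.88. Among the latter 4, Clec7a and Clec12a were the most alike (0.90) and Clec4n and Clec7a the least (0.23). The 8 points are 4 pools of each cell type that share library and diet, so these r values describe the ARM to SM contrast as well as the spread within groups.

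The genes most like each member are given by the same measure over 13358 genes and 8 libraries. Cd209b was most like Trim26 and then Folr2, a folate receptor gene of resident macrophages (both 0.99), and Cd209d was most like Arhgef3 and then Nrp1, a semaphorin and VEGF co-receptor gene (both 0.99). Cd209f was most like Topors and then Tbc1d14, and Cd209g like Evi5 and then Arhgap12 (all 0.99). Cd209a was most like Bfar and then Ccdc93, and Clec10a like Fez2 and then AU041133 (all 0.99). Clec4e was most like Nlrc3 (0.99) and Tnf (0.98), the gene of the cytokine TNF. Clec4n was most like Nrg4 (0.995) and Arhgef26 (0.98), Clec7a like Pold4 (0.99) and Lrrc7 (0.98), and Clec12a like Myzap (0.97) and Phlda3 (0.96). These are the highest r values found over 13358 genes in only 8 libraries, and they too describe the ARM to SM contrast. A tie between the genes named was not tested.

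**Figure D4:**
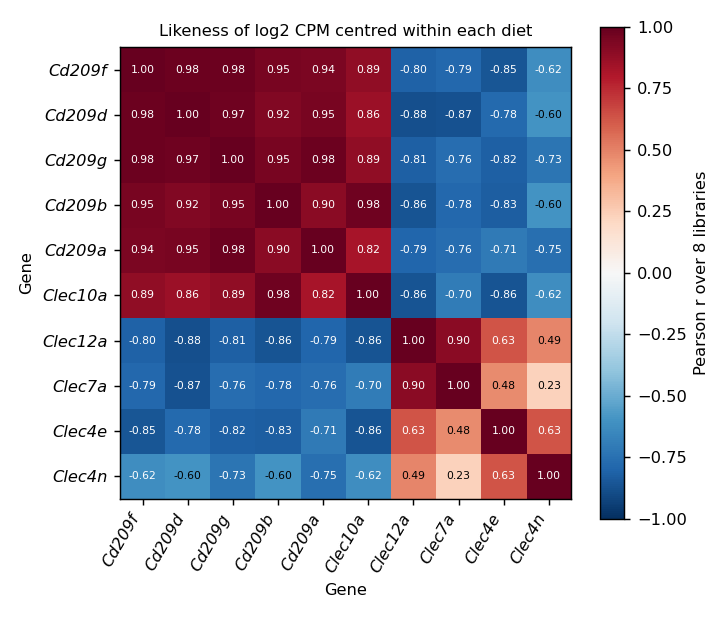
Pearson r between the 10 genes over the 8 libraries, on log2 CPM centred within each diet (red positive, blue negative). The 5 Cd209 genes and Clec10a form a block of r from 0.82 to 0.98, and all their values with the other 4 genes are negative.

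Of 9 other marks of resident macrophages, 6 were lower in HFD ARMs at an adjusted p under 0.05, against 3.02% of all genes, and 0 in ND ARMs. For the difference between the diets 0 of the 9 passed in edgeR, so a response that differs by diet is not shown. In HFD mice all 9 log2 fold changes were below 0, with a median of -0.33, and those that passed included Lyve1, a hyaluronan receptor (log2 fold change -0.58, adjusted p = 0.0013), Folr2 (-0.44, adjusted p = 0.0029) and the scavenger receptor gene Cd163 (-0.39, adjusted p = 0.0107). Timd4 (-0.33), Mrc1 (-0.14) and Pf4 (-0.01) did not pass. In ND mice all 9 were again below 0, with a median of -0.17, and 0 had an adjusted p under 0.05 in edgeR, although 3 had an unadjusted p under 0.05. Of the 9, Mrc1 is also among the other lectin receptors, and Lyve1 is also made by lymphatic endothelium. The summed FPKM of the 9 genes was 5272 to 5672 in HFD ARMs against 6570 to 6787 in HFD SMs, and 7422 to 8254 against 8547 to 9360 in ND mice. The adipocyte markers moved the other way, with 9 of 10 called higher in ARMs of each diet and summed FPKM of 205 to 218 in HFD ARMs against 47.4 to 47.5 in HFD SMs, and of 178 to 292 against 92.5 to 112 in ND mice. Sums of the 8 fibroblast markers were 169 to 209 against 112 to 124 in HFD mice and 224 to 324 against 79.3 to 108 in ND mice. Those of the 8 dendritic cell markers were 31.8 to 35.8 against 34.0 to 34.1 in HFD mice, with 1 of 8 called higher. The part of other cells in the lectin values was not tested.

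The remaining C-type lectin receptors lay on both sides of 0. Of 45 such genes 35 were tested in HFD mice, with a median log2 fold change of 0.04 against -0.01 over all genes. Of these, 3 were called higher in ARMs and 0 lower, and at an adjusted p under 0.05 alone 6 were higher and 4 lower. Over all genes the shares were 4.46% called higher, 0.292% called lower, and 6.53% higher and 3.02% lower at the adjusted p alone. The other members of the CD209 cluster were scarce: Cd209c had an FPKM of 21.8 and 22.8 in HFD ARMs against 26.0 and 30.8 in HFD SMs (log2 fold change -0.34, adjusted p = 0.0419), and Cd209e had a mean of 8.87 against 10.7 (-0.30, adjusted p = 0.103). In ND mice Cd209c had a log2 fold change of 0.03 and Cd209e of -0.25, and neither passed.

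Of the 3 called receptor genes, Olr1 (LOX-1, a receptor for oxidised LDL) had an FPKM of 5.21 and 8.47 in HFD ARMs against 3.06 and 4.17 in HFD SMs (log2 fold change 0.95), Cd72 had a log2 fold change of 0.62, and Mrc2 (1.27) was at an FPKM under 1 in all 4 HFD libraries. In ND mice 31 of the 45 genes were tested, with a median of -0.04 against -0.02 over all genes. Of these 6 were called higher, against 3.55% of all genes, and 0 lower: Pla2r1 (1.91), Mrc2 (1.79), Cd248 (1.45), Clec3b (1.35), Olr1 (0.78) and Clec4d (0.61). The first 2 were scarce: Pla2r1 had an FPKM of 0.42 and 0.52 in ND ARMs against 0.11 in both ND SM libraries. Mrc2 had 0.54 and 0.94 against 0.19 and 0.23. Cd248 and Clec3b are known from fibroblasts and other stromal cells. Of the 8 fibroblast markers 7 were called higher in ND ARMs and 5 in HFD ARMs, against 3.55% and 4.46% of all genes. In HFD mice Cd248 had a log2 fold change of -0.03 and Clec3b of 0.42, and neither was called. The part of stromal cells in these values was not tested. Clec4d, which lies beside Clec4e and encodes its partner MCL, had an FPKM of 45.7 and 42.7 in ND ARMs against 29.6 and 28.5 in ND SMs, and it rose by 0.39 on the log2 scale in HFD ARMs at an adjusted p under 0.05.

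The most abundant receptors of this list were Mrc1 (the mannose receptor CD206) and Mgl2 (CD301b). Mgl2, which shares stretches with Clec10a, was at 742 and 749 in HFD ARMs against 732 and 743 in HFD SMs. The 2 groups overlapped, with a log2 fold change of -0.01 (SE 0.06), where that of Clec10a was -0.32. In ND mice Mgl2 was at 606 and 653 against 627 and 672 (-0.05). Mrc1 was at 658 and 617 in HFD ARMs against 682 and 700 in HFD SMs (-0.14, adjusted p = 0.197), and its log2 fold change was -0.04 in ND mice. Clec4a1, Clec4a3 and Clec4a2, which lie with Clec4n and Clec4e on chromosome 6, came next in abundance. Clec4a2 differed by 0.28 on the log2 scale on HFD (adjusted p = 0.0481) and by -0.04 on ND (adjusted p = 0.905), and the difference between the diets did not pass (adjusted p = 0.515).

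The list of C-type lectin signaling held receptor adaptors, kinases, the Card9 complex and target genes such as cytokines. Of its 41 genes, 40 were tested in each diet, and 3 were called higher in HFD ARMs (Ccl3, Src and Malt1) and 5 in ND ARMs (Ccl3, Nlrp3, Cxcl2, Ptgs2 and Tnf), with 0 called lower in either. Of all genes 4.46% and 3.55% were called higher. At an adjusted p under 0.05 alone, 10 were higher in HFD ARMs and 8 in ND ARMs, against 6.53% and 4.28% of all genes, and 0 were lower. The lowest value on HFD was that of Ccl22, a chemokine gene, at -0.78 (adjusted p = 0.0512), which was called without replicate 2 of the HFD ARMs or replicate 1 of the HFD SMs. Il6 was at -0.22 on HFD (adjusted p = 0.0885). The medians over the 40 genes were 0.05 on HFD and 0.11 on ND. The receptor-proximal genes did not pass in either diet. Their log2 fold changes, HFD first and ND second, were 0.07 and -0.05 for Fcer1g, -0.05 and 0.06 for Syk, -0.08 and 0.18 for Card9, and -0.11 and 0.09 for Bcl10.

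Ccl3, which encodes the chemokine MIP-1α, changed most. Its FPKM was 945 and 809 in HFD ARMs against 443 and 435 in HFD SMs, and 622 and 617 in ND ARMs against 219 and 228 in ND SMs. The groups were far apart in both diets, with log2 fold changes of 0.97 and 1.47. Tnf differed by 0.44 on the log2 scale on HFD, at an adjusted p under 0.05, and by 0.59 on ND. Malt1, the protease that acts with Card9 and Bcl10, differed by 0.59 on HFD and by 0.48 on ND, where it passed on the adjusted p and not on the fold. For the difference between the diets 0 of the 40 genes passed in edgeR, 6 had an unadjusted p under 0.05, and DESeq2 called 1 (Ccl3).

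**Figure D5:**
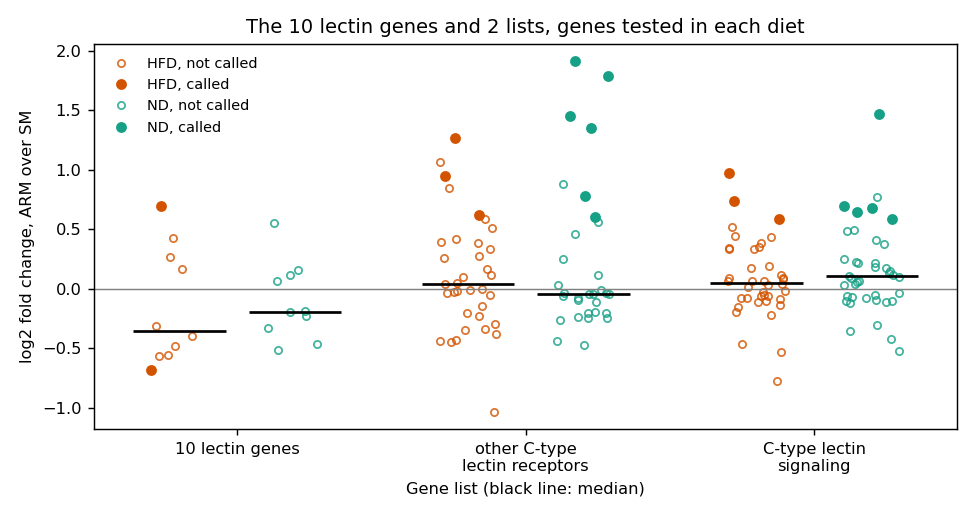
Log2 fold change of ARMs over SMs for the genes of 3 lists (the 10 lectins, the other C-type lectin receptors and the signaling genes) in HFD mice and ND mice; each point is a gene and black lines are medians. The 10 lectins have medians of -0.36 and -0.19, and the other 2 lists lie around 0 with all called genes (filled points) on the ARM side.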

How the data were processed

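RNA-seq was made from ARMs and SMs of eWAT of HFD and ND mice, with 2 libraries per group. The authors deposited 1 table per diet with estimated counts (expected counts), FPKM and TPM per gene and library, on mm10 per the submitters' processing notes. The aligner and counter are not given in the sources used here, and libraries carried no molecular identifiers. The FPKM and TPM values deposited by the authors were used as given, FPKM for levels. The expected counts were rounded, scaled by TMM, filtered with filterByExpr and tested with edgeR 4.0.16 (quasi-likelihood, R 4.3.3) within each diet, and over 8 libraries for the interaction. Calls needed more than a 1.5-fold difference together with a Benjamini-Hochberg adjusted p under 0.05 over all genes tested, and the interaction at an adjusted p under 0.05.

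DESeq2 1.42.0, limma 3.58.1 on log2(FPKM + 1), other scalings and filters and leaving out each library were the alternatives. The script was tested on simulated data. The 10 genes, the lists of other receptors, signaling genes and markers, and the tests were chosen with earlier results of these data known. Text names the 10 genes, called genes of the 2 lectin lists, their 5 most abundant genes, genes that make up a small count, and the genes most alike to each of the 10. Cd209c, Cd209e, Syk, Card9, Bcl10, Ccl22, Il6, Thbd and the markers named were chosen after their values were seen. The tables of the 2 diets differ in how counts and lengths were made, so levels between diets were not tested.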

Additional observations from a re-analysis of the deposited data

Results flagged for a closer look

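Thbd, which encodes thrombomodulin, an anticoagulant receptor with a C-type lectin domain, was the 1 gene among the other C-type lectin receptors whose ARM to SM difference itself differed between the diets. Its FPKM was 84.4 and 78.5 in HFD ARMs against 114 and 104 in HFD SMs, and 41.6 and 48.1 in ND ARMs against 31.2 and 34.0 in ND SMs. It was lower in ARMs of HFD mice (log2 fold change -0.45, edgeR adjusted p = 0.0032) and higher in ARMs of ND mice (0.46, adjusted p = 0.0175), with no overlap in either diet. The interaction was -0.93 on the log2 scale (SE 0.13, adjusted p = 0.0163). It ran from -0.997 to -0.80 as each of the 8 libraries was left out, and the adjusted p rose to 0.0669 without HFD ARM replicate 1, 0.0872 without HFD ARM replicate 2, 0.130 without ND SM replicate 1 and 0.0686 without ND SM replicate 2. Endothelial cells also express Thbd, and the summed FPKM of the 8 endothelial markers was 51.2 to 52.8 in HFD ARMs against 14.8 to 21.2 in HFD SMs, and 13.2 to 28.3 against 9.99 to 11.9 in ND mice. The part of these cells was not tested.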

How the results depend on the processing

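With 2 pools per group the calls moved with single libraries. The count of the 10 genes called in HFD mice (2) was 1 without a filter on low counts, 0 with limma without a filter, and 1 to 3 as each library was left out. In ND mice (0) it was 1 to 2 as each library was left out. At an adjusted p under 0.05 alone, a count added after seeing the data, the 8 genes of HFD mice became 9, with Clec7a added, under library totals, upper-quartile scaling, DESeq2, at least 10 counts in every library and the replicate block, 4 without a filter, 0 with limma without a filter, and 3 to 8 with a library left out. The 3 genes of ND mice became 4, with Cd209g added, without a filter, in one fit of 8 libraries and with the replicate block, 1 with limma at either pseudocount, 0 with limma without a filter, and 1 to 4 with a library left out. The interaction called 0 of the 10 genes under every alternative run. For the other receptors the count in HFD mice (3) was 5 at the threshold of the study's methods and 0 to 3 with a library left out, in ND mice (6) it was 3 to 6, and for the interaction (1) it was 2 with DESeq2 and 0 to 3. For the signaling genes the count in HFD mice (3) was 1 with DESeq2 and 2 to 4 with a library left out, in ND mice (5) it was 4 to 6, and for the interaction (0) it was 1 with DESeq2. The causes were not tested.

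Of the 150 alternative log2 fold changes of the 10 genes in HFD mice, 0 changed sign. In ND mice 4 of 150 did, at about -0.02 each, for Clec4n without ND SM replicate 2 (range over libraries left out -0.0224 to 0.271), Clec7a without ND ARM replicate 2 or ND SM replicate 1 (-0.0239 to 0.353) and Clec12a without ND SM replicate 1 (-0.0210 to 0.153). For the interaction 5 of 140 did, for Cd209d (-0.370 to 0.0862) and Cd209f (-0.241 to 0.0839) without ND ARM replicate 1, and for Clec7a (-0.0842 to 0.3005) without HFD ARM replicate 2, ND ARM replicate 1 or ND SM replicate 2. With the replicate block the counts called were 2 in HFD mice, 0 in ND mice and 0 for the interaction, and at an adjusted p under 0.05 alone they were 9 on HFD and 4 on ND. Deviations of same-numbered libraries correlated at -0.03 over 13337 genes in HFD mice and at 0.22 over 12441 genes in ND mice. With 2 pairs in each diet, these values cannot decide whether the numbers pair the samples.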
